A study of Mus musculus with 6 samples.

Results

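The mouse genes for interleukins, their receptors and their soluble antagonists were followed in lung tumors that had grown with or without interstitial pneumonia. They were taken as all protein-coding genes whose symbol starts with Il and a number, which gave 72 of the 31130 genes in the tables. Of these, 30 encoded ligands, 36 encoded chains of signaling receptors or receptor-like proteins of the same families, 4 encoded soluble antagonists (Il1rn, Il18bp, Il1f5 and Il22ra2) and 2 encoded decoy receptors (Il1r2 and Il13ra2). Genes that belong to these systems under other names, such as Csf2rb, Ebi3 and Tslp, were kept in a separate list of interleukin signaling.

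RNA was sequenced from 6 samples of tumor tissue from wild-type female C57BL/6 mice aged 6 to 8 weeks, 3 per group (LC and IP + LC). Mice of the IP + LC group received bleomycin at 2.0 mg/kg by oropharyngeal aspiration on day 0, which injures the alveoli and leads to lung fibrosis, and those of the LC group received saline. All mice then received eGFP-expressing Lewis lung carcinoma (LLC) cells in the left lung on day 14, and the tumor tissue was taken on day 21. LLC is an established transplantable mouse line, so the cancer cells of every tumor came from 1 line, and the tissue also held host lung and immune cells. The labels give the cell type as lung cancer cells, but the surfactant gene Sftpc of type 2 alveolar cells lay at 23610 to 29460 CPM in the LC tumors and at 4259 to 7885 CPM in the IP + LC tumors (CPM are UMI counts scaled to the size of the library). The comparison asked how a preceding interstitial pneumonia changed gene expression in the tumor. The labels number the tumors without saying that each number is a separate animal, so the p-values measure the spread between these samples.

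Interleukins are secreted proteins by which immune, epithelial and stromal cells act on each other. Ligands of the IL-1 family bind receptors that signal through the adaptor MYD88, and most other interleukins bind receptors that signal through Janus kinases and STAT proteins. Receptors are usually pairs of chains, of which one chain, such as the common gamma chain encoded by Il2rg or gp130 encoded by Il6st, can serve many ligands. Antagonists compete for the receptor or trap the ligand, and decoy receptors bind the ligand without signaling. In the lung, IL-33 and IL-18 are made by resident epithelial cells among others, whereas IL-1 beta comes mainly from myeloid cells.

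The tumors held 592733 to 1631066 UMIs (unique molecular identifiers, each counting 1 captured RNA molecule), of which 770 to 2937 belonged to the interleukin genes. After TMM scaling, these genes together took 1307, 1256 and 1310 CPM in the LC tumors and 1459, 1683 and 1474 CPM in the IP + LC tumors. LC replicate 1 was the shallowest library, and it stood apart from the other LC tumors. Over the tested genes on the log2 scale, it correlated with LC replicates 2 and 3 at 0.84 and 0.80. Its correlations with IP + LC replicates 1, 2 and 3 were 0.814, 0.796 and 0.822, so it was about as close to the other group. LC replicates 2 and 3 correlated at 0.962. The typical spread of a gene between tumors (the common biological coefficient of variation of edgeR) was 33.2% among all LC tumors, 13.7% among LC replicates 2 and 3, and 10.9% among the IP + LC tumors. Markers of several cell types also moved between the groups. Of the tested markers, 7 of 7 for airway epithelium, 7 of 8 for type 2 alveolar cells, 8 of 8 for endothelium, 10 of 10 for alveolar macrophages, 5 of 7 for type 1 alveolar cells, 5 of 8 for fibroblasts, 4 of 7 for neutrophils and 6 of 8 for B cells were lower in the IP + LC group, while the 9 for T cells had a median difference of 0.105 on the log2 scale, and 2 fibroblast markers, Col1a1 and Col1a2, were higher. In bulk tissue, fewer cells of a type and less RNA per cell cannot be told apart.

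Most interleukin genes were scarce in the tumors. Il17a and Il17c had no UMI in any tumor, which at 3 of 7640900 UMIs allows a level of up to 0.393 CPM, and 21 of the 72 genes had fewer than 10 UMIs in the 6 tumors together. The filter on low counts, which asks for about 7.41 CPM in at least 3 tumors, left 34 genes for the test, and these held 94.5% of the interleukin UMIs. Of the 34, 20 were over that level in all 6 tumors. Another 8 were over it in every IP + LC tumor but not in every LC tumor, so these genes (Il10ra, Il12rb1, Il15, Il15ra, Il18bp, Il21r, Il3ra and Il6) were tested because of their level in the IP + LC group. The reverse held for Il17rd, Il17re and Il7r. The 38 untested genes are given by their UMIs.

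Between the groups, 18 of the 34 tested interleukin genes passed the limit of an adjusted p-value below 0.1, 10 with higher and 8 with lower expression in the IP + LC group (quasi-likelihood test of edgeR, p-values adjusted by Benjamini-Hochberg over every gene tested). Among all 11240 tested genes, 36.4% passed, 16.8% with higher and 19.6% with lower expression, whereas among the tested interleukin genes 52.9% passed, 29.4% with higher and 23.5% with lower expression. Of the higher genes, Il10ra, Il12rb1, Il15ra, Il18bp and Il21r were tested because of their level in the IP + LC group. Of the lower genes, Il17rd and Il17re were tested because of theirs in the LC group, so these shares depend on the filter. With at least 10 UMIs in every library, 20 interleukin genes were tested, and 6 were higher and 7 lower (40.4% of all genes passed). The median log2 fold change was 0.21 over the 34 genes and 0.02 over all tested genes. Of all calls, 46.1% were higher, and with scaling by library size alone 58.3% were, with 12 interleukin genes higher and 7 lower. Without LC replicate 1, 25 interleukin genes passed, among them all 18 in the same direction, while the share over all tested genes was 57.0%. Without LC replicate 2 or IP + LC replicate 2, the numbers that passed were 11 and 9, at shares over all tested genes of 22.4% and 19.2%. By role, both tested soluble antagonists were higher, ligands were higher in 1 and lower in 3 of 8 cases, receptor chains were higher in 7 and lower in 5 of 23 cases, and the tested decoy receptor did not pass.

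**Figure D1:**
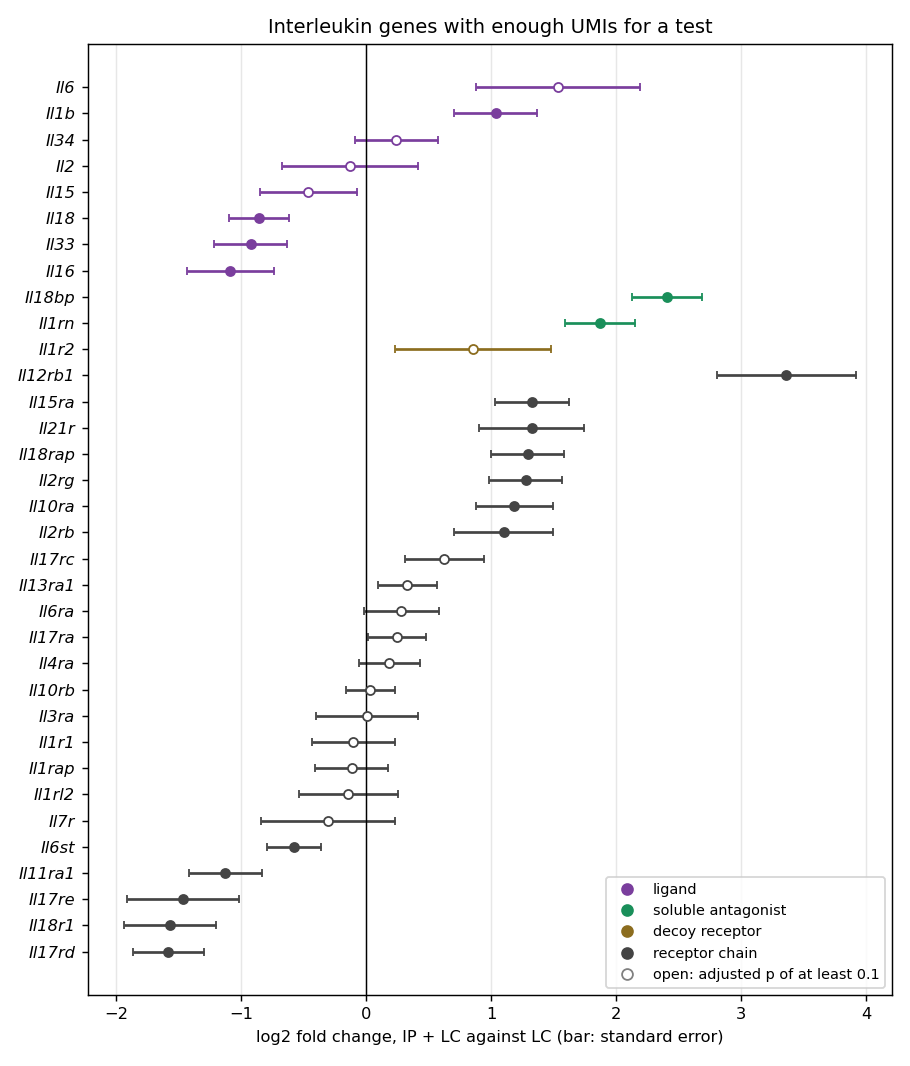
Log2 fold change between the IP + LC and LC groups (x axis, bars are standard errors, n = 3 tumors per group) for the 34 tested interleukin genes, colored by role, with filled points for an adjusted p-value below 0.1. Il12rb1, Il18bp and Il1rn lie farthest to the right, at 3.36, 2.41 and 1.87, and Il17rd, Il18r1 and Il17re lie farthest to the left, at -1.58, -1.57 and -1.47. Il12rb1 and Il18bp were tested because of their level in the IP + LC group, and Il17rd and Il17re because of theirs in the LC group.

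Both antagonists with enough UMIs were among the genes with the highest fold changes, although Il18bp was tested because of its level in the IP + LC group. Il18bp encodes IL-18 binding protein, a secreted trap for IL-18. It lay at 6.79, 13.8 and 12.2 CPM in the LC tumors (4, 18 and 15 UMIs) and at 58.4, 75.05 and 54.2 CPM in the IP + LC tumors (82, 131 and 76 UMIs). All IP + LC tumors were several times above the highest LC tumor, with a log2 fold change of 2.41 (SE 0.28, adjusted p = 0.00111). Il1rn encodes the IL-1 receptor antagonist, which occupies the IL-1 receptor without starting a signal. Its levels were 18.7, 17.6 and 22.0 CPM in the LC tumors and 50.6, 90.5 and 74.9 CPM in the IP + LC tumors. The groups did not overlap, and the log2 fold change was 1.87 (SE 0.28, adjusted p = 0.00232). Of the untested antagonists, Il22ra2, which encodes a soluble trap for IL-22, had 1, 2 and 8 UMIs in the LC tumors and 0, 1 and 1 in the IP + LC tumors, and Il1f5, the antagonist of IL-36, had 5 UMIs in all.

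Of the decoy receptors, only Il1r2 was tested, and it did not pass the limit. Il1r2, which binds IL-1 without signaling, lay at 8.48, 1.53 and 5.70 CPM in the LC tumors and at 3.56, 12.6 and 8.56 CPM in the IP + LC tumors, and these ranges overlapped (log2 fold change 0.85, SE 0.63, adjusted p = 0.344). Il13ra2, which binds IL-13, was not tested, with 1, 0 and 8 UMIs in the LC tumors and 1, 2 and 0 in the IP + LC tumors.

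Among the ligands, Il1b was the only tested gene that passed the limit with higher expression in the IP + LC group. It encodes IL-1 beta, which is made as a precursor and cut by caspase-1. Il1b lay at 108.6, 52.0 and 62.7 CPM in the LC tumors and at 149.6, 198.8 and 100.6 CPM in the IP + LC tumors. LC replicate 1 lay above IP + LC replicate 3, so the groups overlapped, and the log2 fold change was 1.04 (SE 0.33, adjusted p = 0.0477). Leaving out LC replicate 2 or 3 gave Il1b adjusted p-values of 0.183 and 0.136, and leaving out IP + LC replicate 1 or 2 gave 0.126 and 0.197. A noncoding gene on the opposite strand, Il1bos, overlaps 1.31% of its exonic bases, which matters only if the counting ignored the strand.

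Il6, which encodes a cytokine of the acute phase and of fibroblast activation, did not pass the limit. It had 7, 2 and 3 UMIs in the LC tumors, or 11.9, 1.53 and 2.44 CPM, and 25, 19 and 10 UMIs in the IP + LC tumors, or 17.8, 10.9 and 7.13 CPM. LC replicate 1 lay within the range of the IP + LC tumors, and the log2 fold change was 1.53 (SE 0.66, adjusted p = 0.115). Without LC replicate 1 it was 2.53 (SE 0.61, adjusted p = 0.00295). The adjusted p-value of Il6 was also under the limit when scaled by library size alone (0.0785), with limma voom (0.0895) and without a filter (0.0265).

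The 3 ligand genes with lower expression in the IP + LC group were Il33, Il18 and Il16. Il33 encodes an alarmin that is kept in the nucleus of barrier cells and released on damage. It had the most UMIs of all ligand genes in the LC tumors together, 425, and lay at 156.1, 128.4 and 134.4 CPM there, against 108.3, 48.7 and 65.6 CPM in the IP + LC tumors. Every IP + LC tumor lay below every LC tumor, with IP + LC replicate 1 nearest to them, and the log2 fold change was -0.92 (SE 0.29, adjusted p = 0.0441). Leaving out LC replicate 2, IP + LC replicate 2 or IP + LC replicate 3 gave adjusted p-values of 0.101, 0.184 and 0.161 for Il33.

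Il18 encodes IL-18, an inducer of interferon gamma that is also cut by caspase-1. The LC tumors held 30.5, 35.2 and 31.8 CPM of it and the IP + LC tumors 17.8, 14.9 and 22.1 CPM. The groups were apart, with a log2 fold change of -0.86 (SE 0.24, adjusted p = 0.0283). Leaving out LC replicate 2, IP + LC replicate 1 or IP + LC replicate 2 gave adjusted p-values of 0.112, 0.101 and 0.136 for Il18. Il16, which encodes a chemoattractant for CD4+ cells, lay at 18.7, 42.0 and 35.8 CPM in the LC tumors and at 9.98, 17.8 and 19.97 CPM in the IP + LC tumors. LC replicate 1 lay below IP + LC replicate 3, and the log2 fold change was -1.09 (SE 0.35, adjusted p = 0.0462). The adjusted p-value of Il16 was 0.202, 0.120, 0.163 and 0.129 without LC replicate 2, LC replicate 3, IP + LC replicate 1 and IP + LC replicate 2, and 0.158 after thinning to the smallest library. Genes on the opposite strand overlap 17.4% of the exonic bases of Il16, so its counts are uncertain if the strand was not used.

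Type 2 alveolar cells are a source of IL-33 in the mouse lung, and their 8 markers summed to 35470 to 43340 CPM in the LC tumors and to 6447 to 11630 CPM in the IP + LC tumors. No marker of that list was at 0 in a whole group. The part of this difference in the lower Il33 and Il18 was not tested.

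The other tested ligands, Il2, Il15 and Il34, did not pass the limit. Il15 encodes the growth factor of natural killer cells and lay at 5.09, 16.8 and 14.7 CPM in the LC tumors and at 11.4, 8.59 and 9.27 CPM in the IP + LC tumors (log2 fold change -0.46, SE 0.39, adjusted p = 0.408). LC replicate 1 was the lowest of all 6, and without it the log2 fold change was -0.71 with an adjusted p-value of 0.0873. Il34 encodes the second ligand of the CSF1 receptor and lay at 15.3, 9.94 and 10.6 CPM in the LC tumors and at 9.98, 13.8 and 17.1 CPM in the IP + LC tumors, with overlapping ranges (log2 fold change 0.24, SE 0.33, adjusted p = 0.627). Il2, the T cell growth factor, had a log2 fold change of -0.13 (SE 0.54, adjusted p = 0.886), and 18% of its transcript sequence also occurs in Ntan1 transcripts, so its counts are uncertain.

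Of the 22 ligand genes without a test, Il24 had by far the most UMIs. Il24 encodes a cytokine of the IL-10 family that acts on epithelial cells through STAT3. It had 2, 0 and 2 UMIs in the LC tumors and 53, 67 and 9 UMIs in the IP + LC tumors, or 37.8, 38.4 and 6.42 CPM in the latter. IP + LC replicates 1 and 2 were far above replicate 3, which fell below the filter, and replicate 3 in turn lay above every LC tumor. Pooled over the tumors of each group, the ratio of its share of UMIs was 22.2 (95% interval 8.44 to 82.5, for counting error only). In the edgeR fit without a filter on low counts, the log2 fold change was 4.42 (SE 0.54, adjusted p = 3.49e-14). Without LC replicate 1, 2 or 3, Il24 passed the filter, and the log2 fold changes were 4.99, 3.56 and 4.55. Their standard errors were larger (0.98, 1.04 and 1.27), with adjusted p-values of 0.000688, 0.0628 and 0.0451. The fit without IP + LC replicate 3 gave 4.78 (SE 0.61, adjusted p = 0.00882). Il24 lies on chromosome 1 (130882074 to 130887454, minus strand, GRCm38) beside Il20, Il19 and Il10, which had 1, 1 and 2 UMIs in all 6 tumors together.

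Other scarce ligands were seen in few molecules. Il27, which encodes a subunit of a cytokine of the IL-12 family, had 1 UMI in the LC tumors together and 11 in the IP + LC tumors together. Il11 had 3 and 16, Il12b had 3 and 10, Il4 had 3 and 8, Il1a had 10 and 9, Il7 had 32 and 19, Il12a had 11 and 3, Il21 had 8 and 3, and Il17d had 22 and 7 UMIs in the LC and IP + LC tumors together. Of these, Il17d passed the limit in the fit without a filter (log2 fold change -2.04, SE 0.81, adjusted p = 0.0798). The ligands of type 2 and type 17 immunity were scarce, with the 11 UMIs of Il4, 1 UMI each for Il5 and Il13, 2 for Il17f, 9 for Il23a and 1 for Il25 over all 6 tumors. At this depth, differences in these genes were not detectable.

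**Figure D2:**
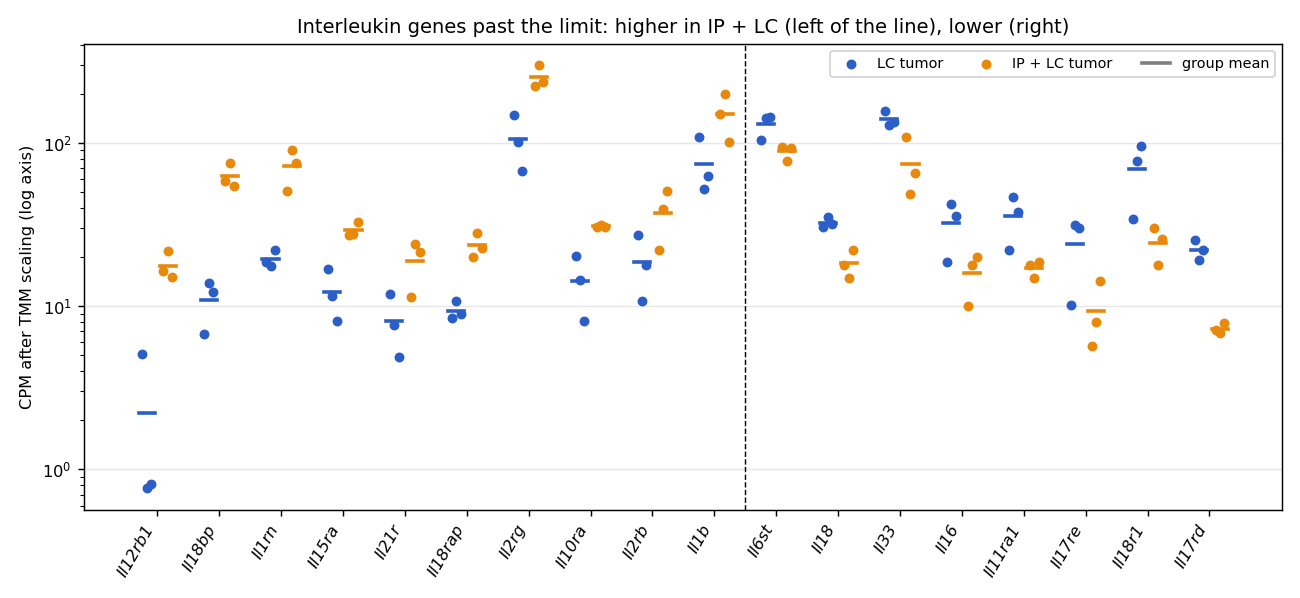
Expression in each of the 6 tumors (CPM after TMM scaling, log axis) of the 18 interleukin genes that passed the limit, with 3 points and a bar for the mean in each group. The 10 genes left of the dashed line were higher and the 8 genes right of it were lower in the IP + LC group, and the lowest points are those of Il12rb1 in LC replicates 2 and 3, at 0.764 and 0.815 CPM.

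The receptor genes with higher expression in the IP + LC group were Il12rb1, Il15ra, Il21r, Il18rap, Il2rg, Il10ra and Il2rb. Il12rb1 encodes the chain shared by the receptors for IL-12 and IL-23. It was nearly absent from the LC tumors, with 3, 1 and 1 UMIs or 5.09, 0.764 and 0.815 CPM, and had 23, 38 and 21 UMIs or 16.4, 21.8 and 14.98 CPM in the IP + LC tumors. The log2 fold change was 3.36 (SE 0.56, adjusted p = 0.00354), and the pooled ratio was 11.3 (95% interval 4.64 to 35.6, for counting error only). Its partner for IL-12, Il12rb2, had 3 UMIs in all, and its partner for IL-23, Il23r, had 2.

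Of these 7 receptor genes, 4 belonged to the system of the common gamma chain, which serves IL-2, IL-4, IL-7, IL-9, IL-15 and IL-21. Il2rg itself was the interleukin gene with the most UMIs, 1468 in all. It lay at 147.6, 101.6 and 66.8 CPM in the LC tumors and at 223.0, 299.1 and 236.1 CPM in the IP + LC tumors, without overlap (log2 fold change 1.28, SE 0.29, adjusted p = 0.0127). The predicted gene Gm20489 covers 30.5% of its exonic bases on the same strand, so some of its molecules could have been left unassigned. Il15ra, which presents IL-15 to neighboring cells, lay at 16.97, 11.5 and 8.15 CPM in the LC tumors and at 27.1, 27.5 and 32.8 CPM in the IP + LC tumors. These groups were apart as well (log2 fold change 1.33, SE 0.30, adjusted p = 0.0121). Thinned to the depth of the smallest library, Il15ra had a log2 fold change of 0.76 and an adjusted p-value of 0.140.

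Il21r, the specific chain for IL-21, lay at 11.9, 7.64 and 4.89 CPM in the LC tumors and at 11.4, 24.1 and 21.4 CPM in the IP + LC tumors. IP + LC replicate 1 lay just below LC replicate 1, and the log2 fold change was 1.32 (SE 0.42, adjusted p = 0.0453). The adjusted p-value of Il21r was 0.146, 0.160, 0.180 and 0.128 without LC replicate 2, LC replicate 3, IP + LC replicate 2 and IP + LC replicate 3. Il2rb, the signaling chain shared by IL-2 and IL-15, lay at 27.2, 10.7 and 17.9 CPM in the LC tumors and at 22.1, 39.5 and 50.6 CPM in the IP + LC tumors. Here IP + LC replicate 1 lay below LC replicate 1, and the log2 fold change was 1.099 (SE 0.40, adjusted p = 0.0685). Leaving out the same tumors in the same order gave adjusted p-values of 0.252, 0.141, 0.183 and 0.213 for Il2rb. Thinned to the smallest library, Il2rb had an adjusted p-value of 0.280.

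Other chains of the same system did not pass or could not be tested. Il7r, the receptor for the lymphocyte survival factor IL-7, lay at 8.48, 16.8 and 26.1 CPM in the LC tumors and at 4.28, 21.2 and 18.5 CPM in the IP + LC tumors, with wide overlap (log2 fold change -0.31, SE 0.54, adjusted p = 0.706). Il2ra, the chain that gives the IL-2 receptor its high affinity and marks regulatory T cells, had 3, 2 and 1 UMIs in the LC tumors and 1, 21 and 14 UMIs in the IP + LC tumors. IP + LC replicate 1 was as low as the LC tumors, and the edgeR fit without a filter gave a log2 fold change of 1.98 (SE 0.74, adjusted p = 0.0550). Without LC replicate 2 or 3, Il2ra had log2 fold changes of 1.70 and 1.47 and did not pass (adjusted p = 0.375 and 0.374). Without LC replicate 1 or IP + LC replicate 1, the values were 2.63 and 2.44 (adjusted p = 0.0325 and 0.0510). Il9r had 6 UMIs in all.

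Il10ra, the ligand-binding chain for the anti-inflammatory cytokine IL-10, lay at 20.4, 14.5 and 8.15 CPM in the LC tumors and at 30.6, 31.5 and 30.7 CPM in the IP + LC tumors. The IP + LC tumors were nearly equal and all above the LC tumors, with a log2 fold change of 1.18 (SE 0.31, adjusted p = 0.0212). The common second chain of this family, Il10rb, had a log2 fold change of 0.03 (SE 0.20, adjusted p = 0.923, with 14.9% of its exonic bases shared with Gm21970), and the ligand gene Il10 had 2 UMIs in all.

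Most of these receptors are carried by lymphocytes, natural killer cells or macrophages. The 10 T cell markers summed to 200.2, 281.2 and 224 CPM in the LC tumors and to 167.5, 297.4 and 330.2 CPM in the IP + LC tumors, so these ranges overlapped. The 7 natural killer cell markers summed to 117.1 to 200.4 CPM and to 98.3 to 117.5 CPM, and 2 of the 5 tested were lower in the IP + LC group. Of the 10 macrophage markers, 4 were higher, among them Adgre1, C1qa and C1qc, and 1, Lyz2, was lower, and their sum, which Lyz2 dominates, went from between 12890 and 15530 CPM to between 7819 and 9539 CPM. No marker of these 3 lists was at 0 in a whole group. The part of the cell composition in the receptor genes was not tested.

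The receptor genes with lower expression in the IP + LC group were Il17rd, Il18r1, Il17re, Il11ra1 and Il6st. Il17rd, also known as Sef and an inhibitor of fibroblast growth factor signaling, lay at 25.5, 19.1 and 22.0 CPM in the LC tumors and at 7.13, 6.88 and 7.85 CPM in the IP + LC tumors. Both groups were tight and apart, with a log2 fold change of -1.58 (SE 0.29, adjusted p = 0.00499). Il17re, the chain for epithelial IL-17C, lay at 10.2, 31.3 and 30.1 CPM in the LC tumors and at 5.70, 8.02 and 14.3 CPM in the IP + LC tumors. LC replicate 1 lay inside the range of the IP + LC tumors, and the log2 fold change was -1.47 (SE 0.45, adjusted p = 0.0389). The adjusted p-value of Il17re was 0.163, 0.120, 0.147 and 0.160 without LC replicate 2, LC replicate 3, IP + LC replicate 1 and IP + LC replicate 2. The 7 markers of airway epithelium, a tissue that carries this receptor, summed to 47870 to 57230 CPM in the LC tumors and to 3353 to 7190 CPM in the IP + LC tumors, and their part in the lower Il17re was not tested. The neighboring gene Il17rc had a log2 fold change of 0.62 (SE 0.32, adjusted p = 0.175), and its adjusted p-value was 0.0602 without LC replicate 2, 0.0922 with scaling by library size alone and 0.0867 without a filter. Il17ra, the chain common to these receptors, lay at 42.4, 29.8 and 27.7 CPM in the LC tumors and at 36.3, 43.5 and 35.7 CPM in the IP + LC tumors, with overlap (log2 fold change 0.25, SE 0.23, adjusted p = 0.456).

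Il6st and Il11ra1 belong to the IL-6 family of receptors. Il6st, which encodes the signal transducer gp130, lay at 103.5, 142.9 and 144.2 CPM in the LC tumors and at 94.8, 77.9 and 93.4 CPM in the IP + LC tumors. The groups did not overlap, but LC replicate 1 lay near the IP + LC tumors, and the log2 fold change was -0.58 (SE 0.21, adjusted p = 0.0742). The adjusted p-value of Il6st was 0.216, 0.175, 0.176, 0.285 and 0.173 without LC replicate 2, LC replicate 3 and IP + LC replicates 1, 2 and 3. Scaling by library size alone gave -0.42 with an adjusted p-value of 0.165, and the fit without a filter gave -0.46 with 0.321. The ligand-binding chain for IL-6, Il6ra, did not pass (log2 fold change 0.28, SE 0.30, adjusted p = 0.517).

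Il11ra1 lay at 22.1, 46.6 and 37.5 CPM in the LC tumors and at 17.8, 14.9 and 18.5 CPM in the IP + LC tumors, without overlap (log2 fold change -1.13, SE 0.29, adjusted p = 0.0210). The adjusted p-value became 0.114 when LC replicate 2 was left out, 0.110 when replicate 2 of the IP + LC group was left out and 0.156 after thinning to the smallest library. Its whole transcript sequence also occurs in its near-identical copies Il11ra2 and Gm13305, so its counts are uncertain. The 8 fibroblast markers summed to 1700 to 2077 CPM in the LC tumors and to 1731 to 1803 CPM in the IP + LC tumors, but opposite changes offset each other in these sums. Of the markers, 5 were lower, among them Dcn (log2 fold change -2.11), and 2 were higher, Col1a1 (1.42) and Col1a2 (0.67). The part of these markers in the lower Il11ra1 and Il6st was not tested.

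Il4ra and Il13ra1, the chains of the receptor for IL-4 and IL-13, did not pass the limit. Il4ra, which serves IL-4 and IL-13, lay at 113.7, 83.3 and 63.5 CPM in the LC tumors and at 99.05, 109.4 and 84.9 CPM in the IP + LC tumors (log2 fold change 0.18, SE 0.24, adjusted p = 0.607), and 9.51% of its exonic bases face Gm44876 on the opposite strand. Its partner Il13ra1 lay at 74.7, 43.6 and 53.8 CPM in the LC tumors and at 74.1, 76.8 and 62.05 CPM in the IP + LC tumors (log2 fold change 0.33, SE 0.24, adjusted p = 0.337). Both pairs of groups overlapped through LC replicate 1, and without it the adjusted p-values were 0.0690 for Il4ra and 0.0226 for Il13ra1. The remaining tested chains, Il1r1, Il1rap, Il1rl2 and Il3ra, had log2 fold changes of -0.10, -0.12, -0.14 and 0.01, with adjusted p-values of 0.846, 0.802, 0.819 and 0.994. Of the 13 untested receptor genes, Il1rapl1, a synaptic protein of the IL-1 receptor family, had 50 of its 72 UMIs in LC replicate 3, and the fit without a filter gave a log2 fold change of -2.34 (SE 0.50, adjusted p = 7.68e-05) that rests on that tumor. Il27ra had 20 and 28 UMIs and Il20rb had 4 and 8 UMIs in the LC and IP + LC tumors together. Fewer than 10 UMIs over all 6 tumors were found for Il1rapl2 (9), Il5ra (8), Il31ra (8), Il20ra (6) and Il17rb (4), and likewise for the IL-36 ligand genes Il1f8 (5) and Il1f9 (4).

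A cluster on chromosome 1 (40074079 to 40551705, GRCm38) holds 6 receptor genes of the IL-1 family in the order Il1r2, Il1r1, Il1rl2, Il1rl1, Il18r1 and Il18rap. The last pair encodes both chains of the IL-18 receptor, and their expression went in opposite directions. Il18r1, the ligand-binding chain, lay at 33.9, 77.2 and 96.1 CPM in the LC tumors and at 29.9, 17.8 and 25.7 CPM in the IP + LC tumors. The IP + LC tumors were all lower, with LC replicate 1 only just above them, and the log2 fold change was -1.57 (SE 0.37, adjusted p = 0.0141). Il18rap, the accessory chain needed for the signal, lay at 8.48, 10.7 and 8.96 CPM in the LC tumors and at 19.95, 28.1 and 22.8 CPM in the IP + LC tumors. Here the IP + LC tumors were all higher, with a log2 fold change of 1.29 (SE 0.29, adjusted p = 0.0121). Both calls held in every alternative that gave a value, 16 for Il18r1 and 15 for Il18rap. Il1rl1, the receptor for IL-33, had too few UMIs for a test, with 0, 4 and 4 in the LC tumors and 5, 9 and 3 in the IP + LC tumors.

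**Figure D3:**
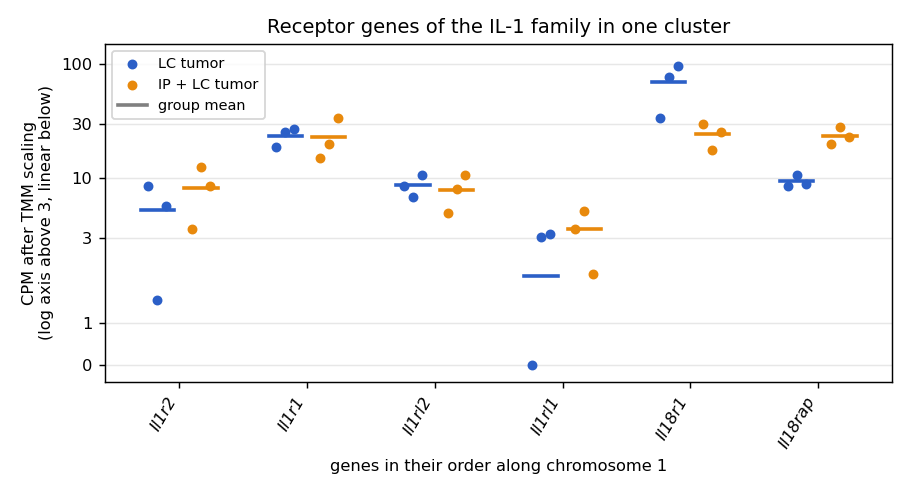
Expression in each tumor (CPM after TMM scaling, log axis above 3 and linear below) of the 6 receptor genes of the cluster on chromosome 1, in their order along the chromosome, with 3 points and a bar for the mean in each group. Il18r1 was lower in every IP + LC tumor (17.8 to 29.9 CPM) than in the LC tumors and its neighbor Il18rap was higher (19.95 to 28.1 CPM), while the groups overlapped at the other 4 genes.

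Promoter sequences of RefSeq (GRCm38.p6) were found for 57 of the 72 genes. In the 250 bases before each start, 2 motifs were searched on both strands, the site of activated STAT dimers (TTCNNNGAA) and a short core of the interferon-stimulated response element (GAAANNGAA). Counting a gene once if any of its promoters held the motif, the first was present in 8.13% and the second in 8.18% of 27025 genes (7.02% and 7.13% of their 32851 promoters). Among the 7 genes with higher expression that had a promoter in the table, 1 held the second motif (Il15ra) and none the first, and among the 8 with lower expression, 1 held the first (Il18r1) and none the second. The promoters of these genes and of Il18rap, the neighbor of Il18r1, are shown on the plus strand with the motif in capitals. They span chr2:11705043-11705289 for Il15ra, chr1:40465811-40465969 for a part of 1 of the Il18r1 promoters, and chr1:40515112-40515361 for Il18rap, whose window held neither motif.
Il15ra: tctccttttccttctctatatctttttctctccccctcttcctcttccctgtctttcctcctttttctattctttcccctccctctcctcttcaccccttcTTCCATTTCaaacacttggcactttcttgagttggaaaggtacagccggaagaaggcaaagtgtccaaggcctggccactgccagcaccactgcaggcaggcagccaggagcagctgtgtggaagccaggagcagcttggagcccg
Il18r1: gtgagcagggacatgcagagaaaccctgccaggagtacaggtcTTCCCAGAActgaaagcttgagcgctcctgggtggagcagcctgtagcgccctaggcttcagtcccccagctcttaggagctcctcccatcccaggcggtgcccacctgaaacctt
Il18rap: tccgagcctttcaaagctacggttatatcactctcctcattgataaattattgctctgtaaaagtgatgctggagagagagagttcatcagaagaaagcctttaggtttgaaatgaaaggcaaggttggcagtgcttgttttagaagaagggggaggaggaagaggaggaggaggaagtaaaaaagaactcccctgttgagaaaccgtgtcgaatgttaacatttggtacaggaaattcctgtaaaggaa
The capitals in Il15ra are the second motif read on the opposite strand, starting 149 bases before the gene start, and those in Il18r1 are the first motif, 152 bases before that start. The same Il18r1 promoter holds the first motif once more, 219 bases before the start and outside the printed part, and the other 2 promoters of Il18r1 hold neither motif.

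A ratio of a pair of genes within a tumor needs no scaling between tumors, but the 0.5 UMI added to each gene sets it where a gene has few UMIs or none, as for Il1rl1 in LC replicate 1 and Il13ra2 in LC replicate 2 and IP + LC replicate 3. For 6 pairs of an antagonist, decoy or receptor and its partner, the log2 ratio of UMIs was compared by an exact two-sided permutation test, in which 3 tumors against 3 cannot give a p-value below 0.1. The same floor holds with 1 tumor left out, so a p-value of 0.1 there is the lowest possible and is no stronger evidence. The ratio of Il18bp to Il18 was -2.04, -1.33 and -1.35 in the LC tumors and 1.69, 2.31 and 1.28 in the IP + LC tumors. The trap thus had fewer UMIs than its ligand in every LC tumor and more in every IP + LC tumor, with a difference in means of 3.34 (exact permutation p = 0.1, adjusted over the 6 pairs 0.3). The ratio of Il1rl1 to Il33 was also higher in every IP + LC tumor, by 1.76 on average, with the same p-values, but it rests on 25 UMIs of Il1rl1. That difference was 0.985 without LC replicate 1 and 1.23 without IP + LC replicate 2 (exact permutation p = 0.3 for each), and 1.45 with 1 UMI added in place of 0.5. The ratio of Il1rn to Il1b was -2.49, -1.54 and -1.50 in the LC tumors and -1.56, -1.13 and -0.42 in the IP + LC tumors, so that the groups overlapped (difference 0.80, exact permutation p = 0.3, adjusted 0.36). Without LC replicate 1 this difference was 0.48, without IP + LC replicate 3 it was 0.50, and without IP + LC replicate 1 it was 1.06 (exact permutation p = 0.1). The other pairs overlapped too, with differences of 0.81 for Il1r2 to Il1r1, -1.54 for Il13ra2 to Il13ra1 and 1.47 for Il15ra to Il15, and exact permutation p-values of 0.4, 0.3 and 0.2. These differences moved when single tumors were left out. That of Il1r2 to Il1r1 was 1.44 without LC replicate 1 (exact permutation p = 0.1), 0.095 without LC replicate 2 and 0.38 without IP + LC replicate 2. That of Il13ra2 to Il13ra1 was -2.51 without LC replicate 2 (exact permutation p = 0.1) and -0.57 without LC replicate 3, and that of Il15ra to Il15 was 2.23 without LC replicate 1 (exact permutation p = 0.1).

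**Figure D4:**
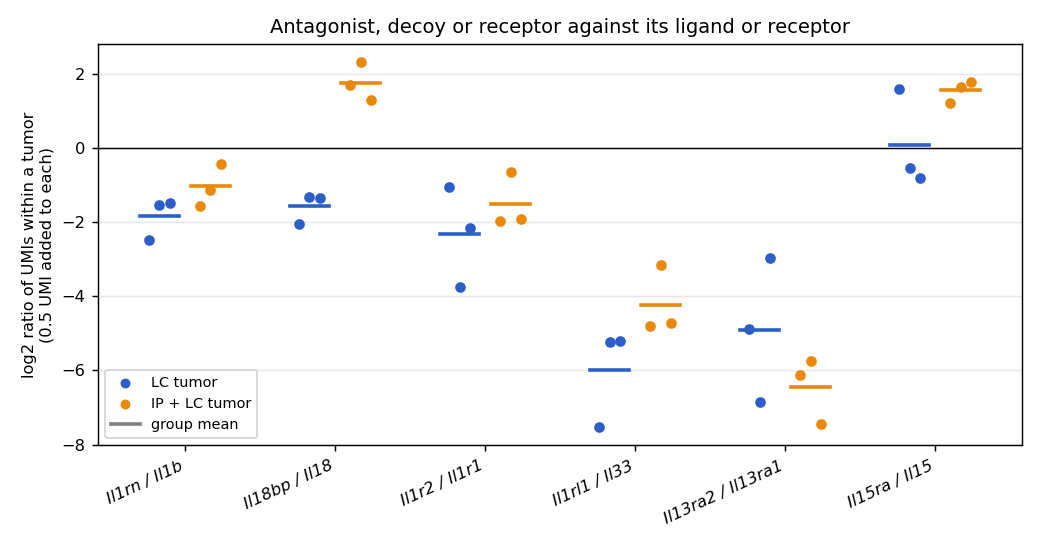
Log2 ratio of UMIs within each tumor (y axis, 0.5 UMI added to each gene) for 6 pairs of an antagonist, decoy or receptor gene and its partner, with 3 points and a bar for the mean in each group. The ratio of Il18bp to Il18 lies below 0 in the 3 LC tumors and above 0 in the 3 IP + LC tumors, from 1.28 to 2.31.

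Genes that carry the interleukin signal into the cell or limit it were read in the same test. Of 30 such genes, 28 were tested, 10 were higher and 2 were lower after bleomycin, at a median log2 fold change of 0.39 (the shares over all tested genes are those given above). The feedback inhibitor Socs1 lay at 15.3, 5.35 and 6.52 CPM in the LC tumors and at 114.0, 132.9 and 140.5 CPM in the IP + LC tumors (log2 fold change 3.98, adjusted p = 0.000565). The groups were thus far apart. Stat3, which serves IL-6 and IL-10, rose by 0.86 on the log2 scale (adjusted p = 0.0239) and its feedback inhibitor Socs3 by 1.80 (adjusted p = 0.0138). Stat4, which serves IL-12, and Stat6, which serves IL-4 and IL-13, had log2 fold changes of 0.31 (adjusted p = 0.524) and 0.04 (adjusted p = 0.927).

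On the side of the IL-1 family, the adaptor Myd88 rose by 0.78 on the log2 scale (adjusted p = 0.0241), the kinase Irak4 by 0.72 (adjusted p = 0.0835) and Casp1, which cuts the precursors of IL-1 beta and IL-18, by 1.22 (adjusted p = 0.0183). Tollip, which dampens this pathway, fell by 0.57 (adjusted p = 0.0622). The receptor chains Csf2rb and Csf2rb2, shared by IL-3, IL-5 and GM-CSF, rose by 1.21 (adjusted p = 0.00827) and 1.22 (adjusted p = 0.0218), and the shedding protease Adam17 rose by 1.01 (adjusted p = 0.00864). Tslp, an epithelial cytokine that acts through Il7r, lay at 8.48, 14.5 and 13.9 CPM in the LC tumors and at 4.99, 4.58 and 2.85 CPM in the IP + LC tumors (log2 fold change -1.62, adjusted p = 0.0145). The other 16 tested genes of the list, among them Jak1, Jak2, Jak3 and Tyk2, did not pass the limit.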

How the data were processed

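Tumor tissue RNA of 3 LC and 3 IP + LC samples was turned into 3' libraries (BRB-seq), in which oligo-dT primers carry a tumor barcode and a UMI. The authors extracted UMIs with UMI-tools 1.1.1, trimmed reads with Trim Galore 0.6.7, used HISAT2 2.2.1 to align them to GRCm38 and featureCounts 2.0.1 to assign them to genes. Each tumor's deposited table holds raw UMI counts, without normalization. The annotation release and the strand setting are not given in the sources used here.

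From these counts, genes were kept by filterByExpr (minimum count 10 in 3 libraries, total 15), scaled by TMM and compared with the quasi-likelihood test of edgeR 4.0.16 in R 4.3.3, with Benjamini-Hochberg adjustment over 11240 genes and a limit of 0.1. CPM are computed with the TMM-scaled library sizes. Every interleukin gene was accounted for. Values in each tumor are given for genes past the limit and for a list of known interleukin genes, and untested genes by their UMIs. The rule named untested genes with at least 10 UMIs and known ligands, and the rest were added to complete the account. Members, roles and lists were chosen with earlier results of these data known. Overlapping and near-identical genes were found in GENCODE M21 (GRCm38) with blastn 2.17.0 (identity of at least 95% over at least 81 bases). Pooled ratios have exact 95% intervals for counting error only. Alternatives were other scalings (DESeq2 size factors, upper quartile, library size), other filters, DESeq2 1.42.0, limma 3.58.1 voom, a replicate block, thinning to 592733 UMIs, a limit of 0.05 and leaving out each tumor. Samples with the same number did not deviate together, so the numbers were not taken as pairs. Some genes of the marker and signaling lists were counted but are not reported here by name.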

Additional observations from a re-analysis of the deposited data

How the results depend on the processing

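Of the 18 interleukin genes past the limit, 8 (Il10ra, Il12rb1, Il17rd, Il18bp, Il18r1, Il18rap, Il1rn and Il2rg) stayed past it in every alternative, of 16 tried, that gave the gene a value, and none of the 18 changed direction in any. DESeq2 called 18, all shared with the edgeR test, and limma voom called 19, of which 18 were shared (29% and 38.7% of all genes passed). With at least 10 UMIs in every library, 20 interleukin genes were tested, 6 were higher, and the 1 antagonist tested passed (40.4% of all genes passed). Thinned, 25 were tested, 5 were lower, and 7 of 19 receptor chains passed (26.6% of all genes). Without a filter, 7 of 28 ligands passed (16.4% of all genes). Leaving out 1 tumor at a time gave 9 to 25 genes in all, 2 to 10 lower, 0 to 8 ligands and 7 to 15 receptor chains. The share over all genes then ranged from 19.2% without IP + LC replicate 2 to 57% without LC replicate 1. The 0 ligands came without IP + LC replicate 2, where edgeR gave an unadjusted p-value below 0.05 for 2 of 9 tested. With the replicate block, 16 genes passed (30.3% of all genes), Il2rb (1.09, adjusted p = 0.108) and Il6st (-0.57, adjusted p = 0.148) being lost. The same-numbered tumors correlated at 0.026, -0.12 and 0.112 in their deviations, so the numbers were not taken as pairs. With so few tumors, such values cannot exclude that same-numbered tumors were handled together. Scaling by library size alone moved the median of all genes by 0.158 and the share of higher genes among all calls from 46.1% to 58.3%, with 12 interleukin genes higher and 7 lower. Over all genes, leaving out 1 tumor gave 2265 to 6691 calls and thinning gave 2357, against 4088.

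No gene that reversed had passed the limit, and the cause was not tested. Log2 fold changes changed sign with library size alone for Il1r1 (0.0588), Il1rap (0.0491), Il1rl2 (0.0224) and Il2 (0.0263), with upper quartile scaling for Il10rb (-0.0304) and Il3ra (-0.0540), and with DESeq2 size factors (-0.0107), DESeq2 (-0.0617) and the replicate block (-0.0056) for Il3ra. Thinning reversed Il10rb (-0.0350), Il1rap (0.30) and Il7r (0.17), and the fit without a filter reversed Il1r1 (0.0098). With 1 tumor left out, the sign turned for Il10rb (-0.0411 to 0.15), Il1r1 (-0.44 to 0.15), Il1rap (-0.31 to 0.0721), Il1rl2 (-0.37 to 0.11), Il2 (-0.50 to 0.44), Il3ra (-0.31 to 0.37), Il4ra (-0.0050 to 0.41) and Il7r (-0.65 to 0.14). Differences in genes of few UMIs are limited by depth, since 3 UMIs are 1.84 to 5.06 CPM in a single tumor.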
